A study of Homo sapiens with 4 samples.

Results

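The BCL2 family sets the threshold for mitochondrial apoptosis, and 10 of its genes were followed in Caco-2 cells exposed to the bile acid cholate. They were taken by gene symbol and make up 10 of the 18417 genes that a probe set with a single listed symbol measured. By role they are the BH3-only genes PMAIP1, BBC3, BCL2L11, BIK and BID, the guardians MCL1, BCL2L1 and BCL2, and the effectors BAX and BAK1. Each gene had exactly 1 probe set with its symbol alone.

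Caco-2 is an established human colorectal adenocarcinoma line that becomes enterocyte-like after confluence. Cells on regular 6 well plates or on collagen-coated Transwell inserts, whose porous membrane separates an apical from a basolateral side, received vehicle or 2 mM sodium cholate for 3 h, apically on the inserts. Each of the 4 conditions was measured on 1 array with total RNA pooled from 3 samples, so a difference between conditions has no replicate check. The sample labels give 21 days of differentiation throughout, while the growth protocol gives 14 days for plates and 14 to 21 days for inserts, so support and culture time cannot be told apart. The cholate came in a calcium-free buffered salt solution, and the sources used here do not give the composition of the vehicle.

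In mitochondrial apoptosis the effectors BAX and BAK form pores in the outer mitochondrial membrane and release cytochrome c, which starts caspase activation. Guardians hold effectors and BH3-only proteins in complexes and so keep the membrane closed. BH3-only proteins are named for BH3, which in most of them is the only BCL2 homology domain. They act as stress sensors: they occupy the groove of the guardians or engage the effectors directly. NOXA, the product of PMAIP1, binds MCL1 in preference to other guardians, and its gene is induced by p53 and by factors of the integrated stress response. Intestinal epithelium meets bile acids daily, and hydrophobic bile acids are known to kill enterocytes and hepatocytes at high concentration; cholate is among the more hydrophilic ones. All values below are RNA levels and carry no information on protein, pore formation or cell death.

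The regions just before the start sites of 3 members are shown because these members lay above the floor of measured intensity and had the same sign of cholate response on both supports: PMAIP1 and BBC3, which were higher, and BAK1, which was lower. BIK and BCL2 also had the same sign on both supports, but BIK had no window in the table used and BCL2 was dim. The windows of 300 bases come from RefSeq on GRCh38.p14 and run from 250 bases before to 50 bases after a start site, at chr18:59899746-59900045 on the plus strand for PMAIP1, chr19:47232618-47232917 on the minus strand for BBC3 and chr6:33580227-33580526 on the minus strand for BAK1. Capitals mark matches on either strand to TGACG, the core of the cyclic AMP response element (CRE) that ATF and CREB proteins bind, or to TGANTCA, the AP-1 site of FOS and JUN dimers.
PMAIP1: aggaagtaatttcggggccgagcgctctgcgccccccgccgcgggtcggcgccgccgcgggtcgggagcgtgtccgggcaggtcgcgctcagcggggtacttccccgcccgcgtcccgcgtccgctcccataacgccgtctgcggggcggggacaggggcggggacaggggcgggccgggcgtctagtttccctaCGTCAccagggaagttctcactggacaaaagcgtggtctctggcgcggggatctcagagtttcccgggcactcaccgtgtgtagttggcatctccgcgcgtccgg
BBC3: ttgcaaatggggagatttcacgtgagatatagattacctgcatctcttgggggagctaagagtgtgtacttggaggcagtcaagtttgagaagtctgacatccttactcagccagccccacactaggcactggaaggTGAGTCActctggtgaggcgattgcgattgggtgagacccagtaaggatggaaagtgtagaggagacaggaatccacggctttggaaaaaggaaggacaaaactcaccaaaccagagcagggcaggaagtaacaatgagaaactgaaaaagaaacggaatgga
BAK1: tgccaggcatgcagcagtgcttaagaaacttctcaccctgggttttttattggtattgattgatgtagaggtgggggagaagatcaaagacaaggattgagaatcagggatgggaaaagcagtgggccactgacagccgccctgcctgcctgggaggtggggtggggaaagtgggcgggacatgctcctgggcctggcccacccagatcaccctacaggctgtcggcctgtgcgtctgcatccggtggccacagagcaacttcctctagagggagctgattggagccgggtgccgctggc

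PMAIP1 had 1 CRE core, at position -55 from the start site and read on the minus strand, and no AP-1 site. BBC3 had 1 AP-1 site, at -113, and no CRE core, and BAK1 had neither. Among all 35116 windows of this length, 24.6% held a CRE core and 7.71% an AP-1 site, so the first is a common match. Neither motif can be part of the other, and the matches shown do not overlap. Of the 10 members, 8 had a window in the table, with 13 windows between them. CRE cores also occurred in BCL2L1 (at -201, in 1 of its 2 windows), BCL2 (at -225) and BAX (at -134). Whether a match goes with a cholate response was not tested. A match describes letters and is not a bound site.

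Values are log2 intensities from the authors' RMA processing, 1 per probe set and array. A floor of 4.84, the 40th percentile of the mean over the 4 arrays, separated measured from dim probe sets, and 9 members lay above it. The array medians ran from 5.64 to 5.73. The cell type labels were checked on marker genes: all 12 measured epithelial or enterocyte markers, among them VIL1, CDH1, EPCAM, CDX2 and KRT20, lay above the floor. Of 7 fibroblast markers 4 lay above it (COL1A1, COL1A2, COL3A1 and PDGFRB). Of 4 leukocyte markers 1 did (CD14), and of 4 endothelial markers 1 (PECAM1). Over the whole series 12900 of 18417 genes lay above the floor, so lying above it is common. The log2 of the summed intensity of a list ran from 15.25 to 15.42 over the 4 arrays for the epithelial markers, from 8.387 to 8.788 for fibroblast, from 8.569 to 8.937 for leukocyte and from 6.657 to 7.021 for endothelial markers. The part of these markers in the results was not tested. In a bulk pool, fewer cells with a transcript and less transcript per cell cannot be told apart.

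**Figure D1:**
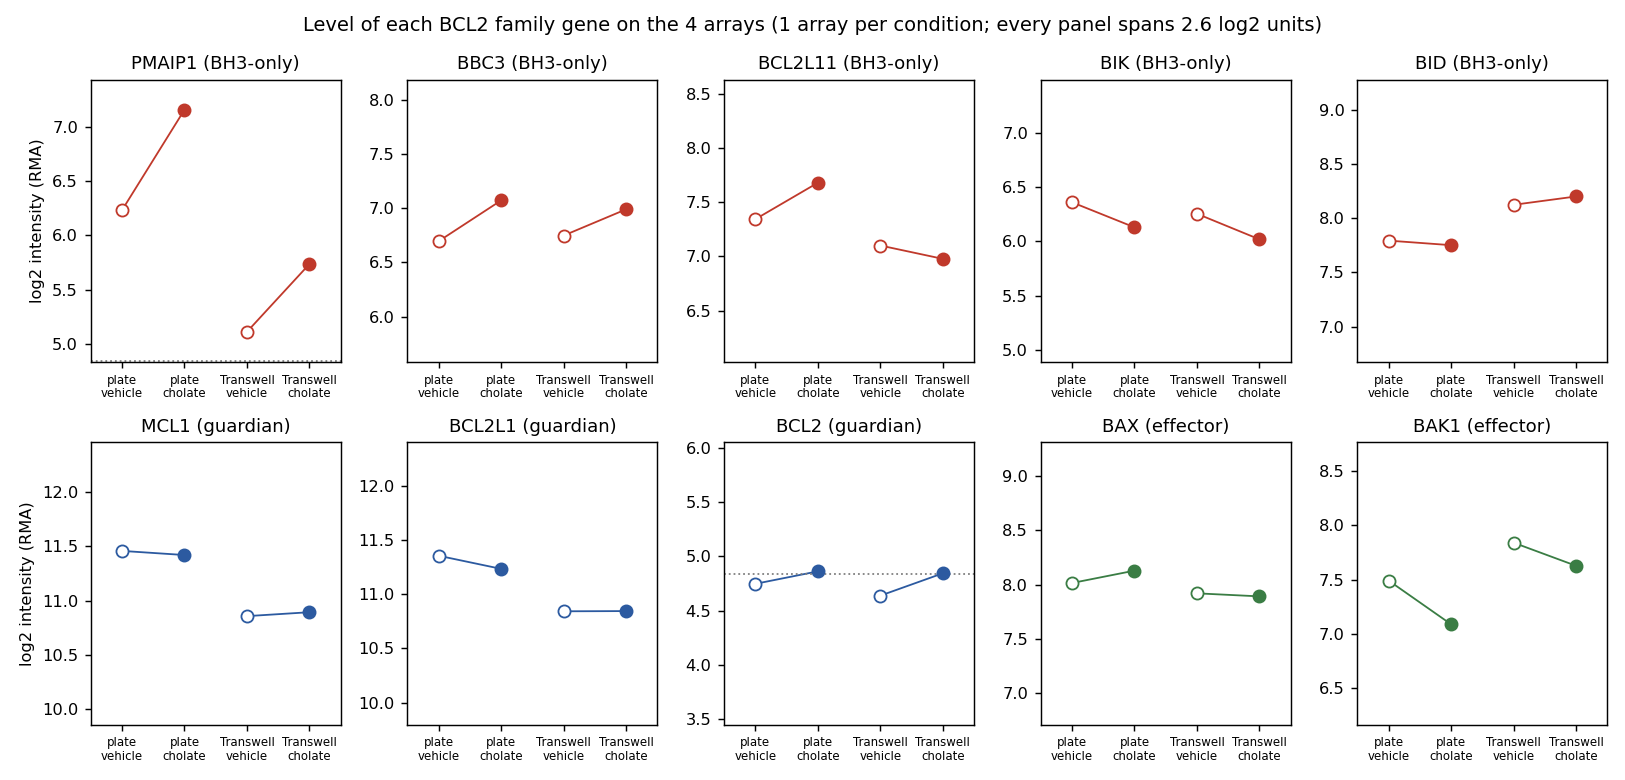
RMA log2 intensity (y axis) of each of the 10 genes on the 4 arrays (x axis), 1 point per array, open for vehicle and filled for cholate; lines join the arrays of a support, colours mark the roles and the dotted line is the floor of 4.84. Every panel spans the same number of log2 units, and PMAIP1 covers the widest range, 2.05, while BCL2 stays at the floor.

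Cholate against vehicle was compared separately on each support. The BH3-only gene PMAIP1 (probe set 8021470) was the single member at least 1.5-fold apart. Its log2 intensity was 6.23 in vehicle and 7.16 in cholate on the plate, and 5.11 in vehicle and 5.74 in cholate on Transwell. Both plate arrays lay above both Transwell arrays, and on each support the cholate array was the higher one. Cholate minus vehicle came to 0.93 log2 for the plate (1.9-fold) and 0.63 for Transwell (1.54-fold). Of the 12900 genes above the floor, 75 had a more positive response on the plate and 29 on Transwell. The Transwell value sits just past the 1.5-fold line and came to 0.58 after centring each array on its median and after quantile normalization, which is just short of it.

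BBC3 (probe set 8037872), which encodes PUMA, a BH3-only protein that binds all the main guardians, had the next largest response in that direction. It read 6.70 in vehicle and 7.07 in cholate on the plate, and 6.75 and 6.99 on Transwell. The 2 cholate arrays thus stood above the 2 vehicle arrays, with differences of 0.38 log2 for the plate (1.3-fold) and 0.24 for Transwell (1.18-fold). Among genes above the floor, 11.2% were as far from 0 as BBC3 on the plate and 12.1% on Transwell.

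BCL2L11 (probe set 8044375) encodes BIM, a BH3-only protein that can also engage the effectors directly. Its levels were 7.34 in vehicle and 7.68 in cholate on the plate, but 7.10 and 6.98 on Transwell. Its plate response was 0.34 log2 and its Transwell response -0.12, of opposite sign. The gap of -0.46 log2 between these responses was the largest of the 10 members, and 6.28% of genes above the floor had a gap as large. This difference uses all 4 arrays and was not tested.

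The remaining BH3-only members did not follow PMAIP1. BIK (probe set 8073605), an inducer of apoptosis that resides mainly at the endoplasmic reticulum, read 6.36 in vehicle and 6.13 in cholate on the plate, and 6.25 and 6.02 on Transwell. Its response was nearly equal on the supports, -0.23 and -0.24 log2, and 28.5% of genes were as far from 0 on the plate and 13% on Transwell. BID (probe set 8074261), which caspase-8 cleaves to link death receptors to mitochondria, stood at 7.79 and 7.75 on the plate and at 8.12 and 8.20 on Transwell. Its responses of -0.04 and 0.08 log2 were exceeded in size by 83.7% and 56.1% of genes. Over the 5 BH3-only genes the median response was 0.34 log2 for the plate and 0.08 for Transwell, where all genes above the floor had -0.03 and -0.01.

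The guardians differed little between cholate and vehicle. MCL1 (probe set 7919751), a short-lived guardian and the preferred partner of NOXA, read 11.46 in vehicle and 11.42 in cholate on the plate, and 10.86 and 10.89 on Transwell. Those responses were -0.04 and 0.04 log2, and the second was -0.01 with each array centred on its median. BCL2L1 (probe set 8065569), whose main product is BCL-XL, read 11.35 and 11.23 on the plate and 10.84 on both Transwell arrays. Its responses were -0.12 and 0.002 log2, the second of which was -0.05 under median centring. BCL2 itself (probe set 8023646) lay at the floor, with 4.75 and 4.86 on the plate and 4.64 and 4.84 on Transwell. In 3 of the 4 arrays it was under the floor, so its responses of 0.12 and 0.21 log2 compare dim values. The PMAIP1 response was thus unequal to that of MCL1, 0.93 against -0.04 log2 on the plate and 0.63 against 0.04 on Transwell.

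The effectors went different ways. BAK1 (probe set 8125766), which encodes the pore former BAK, read 7.49 in vehicle and 7.09 in cholate on the plate, and 7.84 and 7.63 on Transwell. Its responses were -0.40 log2 (1.32-fold) and -0.21 (1.16-fold), the most negative of the members on the plate, and 9.54% of genes were as far from 0 there and 16.3% on Transwell. BAX (probe set 8030158), the second pore former, stood at 8.01 and 8.13 on the plate and at 7.92 and 7.89 on Transwell, with responses of 0.11 and -0.03 log2.

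In counts, 1 of the 10 members was at least 1.5-fold higher on the plate, where 1.49% of genes above the floor were, and 1 on Transwell, where 0.357% were. No member was at least 1.5-fold lower on the plate or on Transwell, where 2.35% and 0.736% of genes were. PMAIP1 was already known to respond when the list was drawn up, so its call is no independent support. At least 1.5-fold higher on both supports were PMAIP1 and 0.178% of genes. Higher on both supports by any amount were 3 members (PMAIP1, BBC3 and BCL2), against 26.1% of genes above the floor. Lower on both were 2 (BIK and BAK1), against 34.7%. The mean of BCL2 lay under the floor, so BCL2 is not among the genes behind these percentages. Over all 10 members the median response was 0.04 log2 for the plate pair and 0.02 for the Transwell pair.

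**Figure D2:**
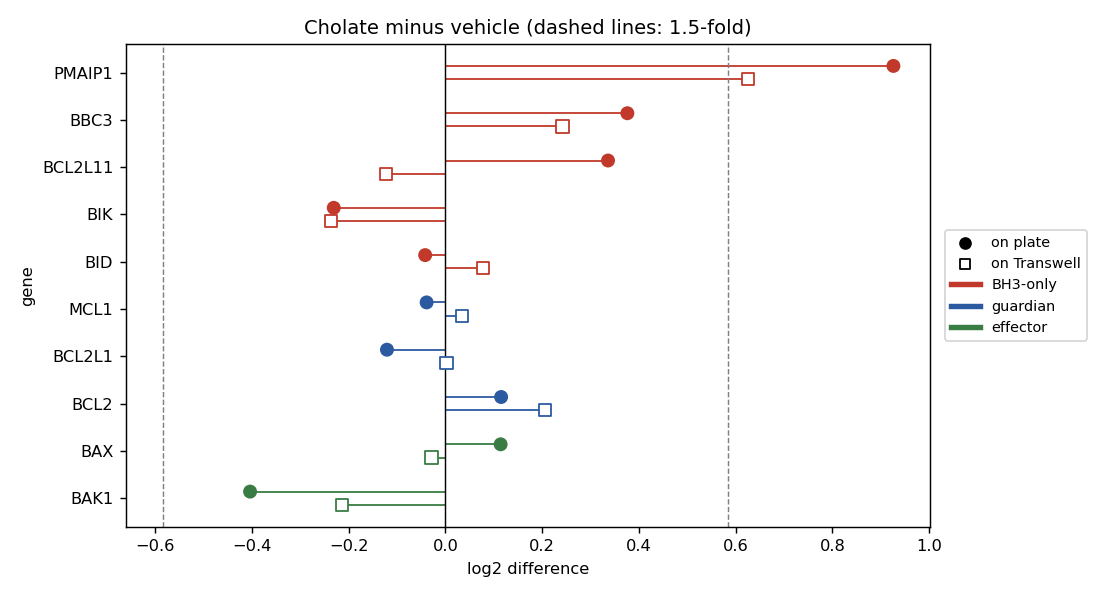
Log2 difference between cholate and vehicle (x axis) for each member (y axis), with filled circles for the plate and open squares for Transwell, 1 pair of arrays each; colours mark the roles and dashed lines 1.5-fold. PMAIP1 alone lies past a dashed line (0.93 and 0.63), BBC3 lies to the right of 0 on both supports, and BIK and BAK1 lie to the left on both.

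**Figure D3:**
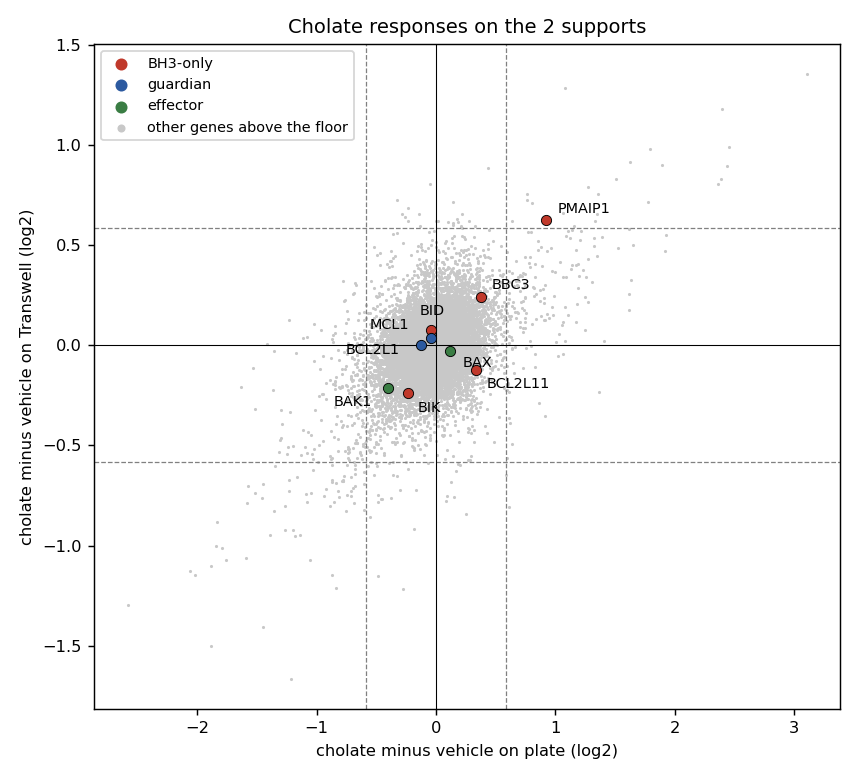
Cholate response on the plate (x axis, log2) against that on Transwell (y axis, log2) for the 12900 genes above the floor, in grey, with the 9 members among them coloured by role; dashed lines mark 1.5-fold. PMAIP1 is 1 of the 23 genes in the upper right field, and the other members lie within the central cloud.

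The additive limma fit set a cholate difference shared by both supports against an error estimate. The gap between the 2 responses gave that estimate its single residual degree of freedom. The rest was a prior drawn from all probe sets, with 2.829 degrees of freedom. None of the 9 members above the floor passed after Benjamini-Hochberg adjustment over all 19978 probe sets, and 0% of all probe sets did, while 2162 had an unadjusted p under 0.05. The mean cholate difference of PMAIP1 was 0.78 log2 with a limma SE of 0.12 (unadjusted p = 0.00295, adjusted p = 0.321, from 0.255 to 0.463 over the alternatives). For BBC3 the mean was 0.31 with an SE of 0.09 (limma adjusted p = 0.443), for BAK1 -0.31 with an SE of 0.10 (limma adjusted p = 0.449) and for BIK -0.23 with an SE of 0.09 (limma adjusted p = 0.473). The other 5 members tested had limma adjusted p-values from 0.806 to 0.996. These standard errors do not measure the spread between cultures.

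Transwell against plate was compared once in vehicle and once in cholate. PMAIP1 had the largest support difference of the members as well. From the levels given above it was lower on Transwell, by -1.12 log2 in vehicle (2.17-fold) and -1.42 in cholate (2.68-fold). Only 57 of the genes above the floor had a more negative difference in vehicle and 23 in cholate. This comparison uses the same arrays as the cholate responses, so the values are not independent of them. The lowest PMAIP1 level, 5.11 in vehicle on Transwell, was close to the floor, where RMA compresses differences.

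The highly expressed guardians were lower on Transwell in both treatments. MCL1 stood at -0.60 log2 in vehicle (1.52-fold) and -0.53 in cholate (1.44-fold). BCL2L1 stood at -0.51 (1.43-fold) and -0.39 (1.31-fold). In each of these genes both Transwell arrays lay below both plate arrays. As large a difference was found in 4.75% of genes for MCL1 and 7.16% for BCL2L1 in vehicle, and in 10.4% and 19.8% in cholate. BCL2, near the floor, stood at -0.11 and -0.02 log2, the second of which turned to 0.02 with median centring and 0.03 with quantile normalization.

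Among the other BH3-only genes the support differences were mixed. BCL2L11 stood at -0.24 log2 in vehicle and -0.70 in cholate (1.63-fold), with both Transwell arrays below both plate arrays. BID was the BH3-only gene with more RNA on Transwell in both treatments, by 0.33 log2 in vehicle (1.26-fold) and 0.45 in cholate (1.36-fold), and its Transwell arrays both lay above the plate arrays. BBC3 differed by 0.05 and -0.08 log2 and BIK by -0.11 in each treatment, with overlapping arrays.

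The effectors again parted. BAK1 was higher on Transwell by 0.35 log2 in vehicle (1.27-fold) and 0.54 in cholate (1.45-fold), and both Transwell arrays lay above both plate arrays. BAX stood at -0.10 and -0.24 log2, and its Transwell arrays lay just below the plate arrays.

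At least 1.5-fold lower on Transwell were 2 of 10 members in vehicle (PMAIP1 and MCL1), against 3.16% of genes above the floor, and 2 in cholate (PMAIP1 and BCL2L11), against 3.75%. None was at least 1.5-fold higher, against 1.93% of genes in vehicle and 4.02% in cholate. Past 1.5-fold in both treatments was PMAIP1, with 1.84% of genes at least that much lower in both. By any amount, 7 members were lower on Transwell in both treatments, where 33.2% of genes were, and 2 were higher (BID and BAK1), where 39.5% were. BCL2 counts among the 7 as deposited and drops out under median centring and quantile normalization. It also lay under the floor, so it is not among the genes behind these percentages. The median over the members was -0.11 log2 in vehicle and -0.17 in cholate, against 0.02 over all genes in each.

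**Figure D4:**
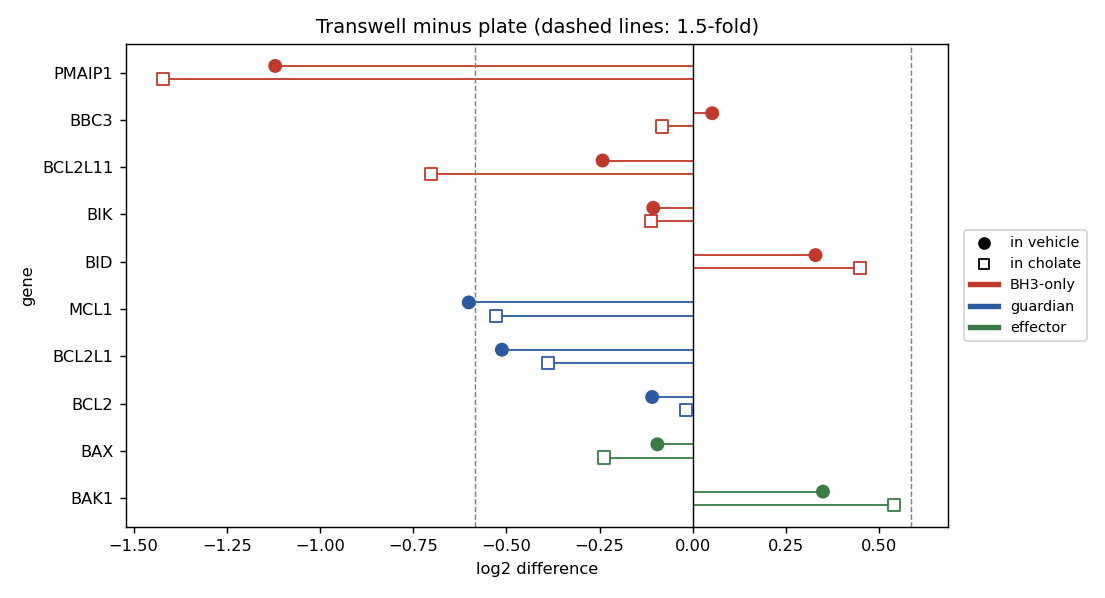
Log2 difference between Transwell and plate (x axis) for each member (y axis), filled circles in vehicle and open squares in cholate, 1 pair of arrays each; colours mark the roles and dashed lines 1.5-fold. PMAIP1 lies farthest to the left (-1.12 and -1.42), MCL1 and BCL2L1 lie to the left by about the same amount in both treatments, and BID and BAK1 lie to the right.

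In the additive limma fit for support 0% of all probe sets passed, with 4519 at an unadjusted p under 0.05, so no member passed. PMAIP1 had a mean difference of -1.27 log2 with an SE of 0.12 (limma adjusted p = 0.0858, from 0.0431 to 0.171 over the alternatives) and MCL1 one of -0.56 with an SE of 0.09 (limma adjusted p = 0.115, from 0.0431 to 0.206). When the prior variance was allowed to follow intensity, 293 of 19978 probe sets passed, among them both of these genes (limma adjusted p = 0.0431 each). BCL2L1 followed at -0.45 with an SE of 0.09 (limma adjusted p = 0.134), BAK1 at 0.44 with an SE of 0.10 (limma adjusted p = 0.142) and BID at 0.39 with an SE of 0.09 (limma adjusted p = 0.149).

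The genes whose pattern over the 4 arrays was most like that of PMAIP1 were found by distance. Likeness was measured as the Euclidean distance between log2 intensities after each gene was centred on its own mean, a description over 4 arrays with no test. The 5 closest of 12899 genes were CHAC1 (distance 0.17), an enzyme that degrades glutathione, JUNB (0.18), a subunit of AP-1, DDIT3 (0.21), the transcription factor CHOP, ATF3 (0.23), a stress-induced transcription factor, and DEPP1 (0.27). The median distance over all genes was 1.53. CHAC1 read 7.50 and 8.66 in vehicle and cholate on the plate and 6.47 and 7.06 on Transwell, JUNB 8.27, 9.03, 7.13 and 7.86, and DEPP1 7.22, 8.09, 6.35 and 6.62 in the same order. In all 5, as in PMAIP1, plate cholate was the highest array and Transwell vehicle the lowest. That order follows from choosing the genes by closeness to PMAIP1 and is no separate result. Within the family, ranks in closeness to PMAIP1 were taken for BCL2L11 (348), MCL1 (388) and BBC3 (2381) alone. The ranks of the other members are not given, so these are not the closest members by selection.

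**Figure D5:**
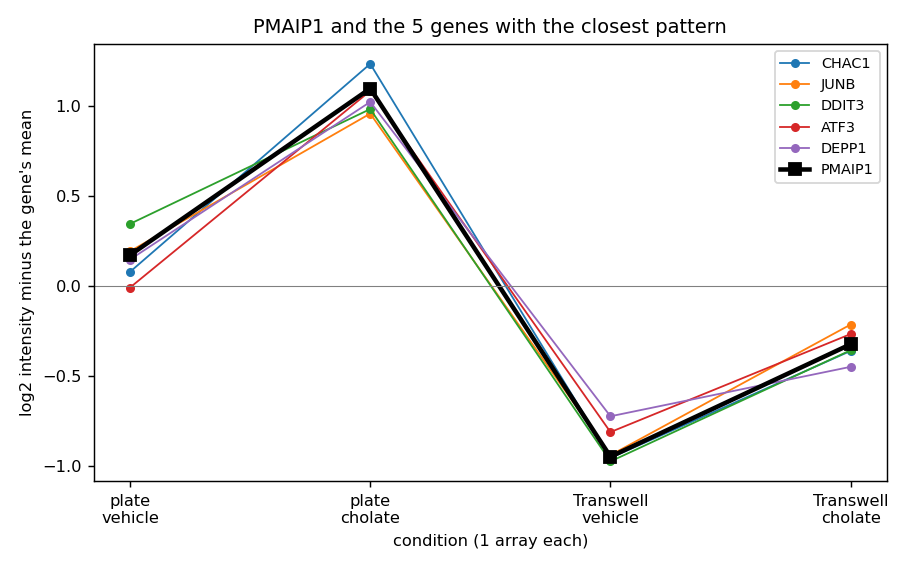
Log2 intensity minus the gene's own mean (y axis) on the 4 arrays (x axis, 1 array per condition) for PMAIP1, in black, and the 5 genes with the closest pattern. All 6 peak in plate cholate and are lowest in Transwell vehicle, an order that follows from choosing the 5 by closeness to PMAIP1. Lines join a gene's values and carry no order in time.

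Transcription factors known to act on BH3-only genes were followed as a list of 10, of which 9 were measured and above the floor. On the plate 3 were at least 1.5-fold higher in cholate and 0 lower, where 1.49% and 2.35% of genes above the floor were. On Transwell 1 was higher and 0 lower, where 0.357% and 0.736% were. The list medians were 0.13 and 0.19 log2. Under median centring 2 were higher on the plate and 0 on Transwell. The rescaled list values were added after the data were seen. ATF3 read 6.78 and 7.88 on the plate and 5.98 and 6.52 on Transwell, a response of 1.09 and 0.55 log2 (limma adjusted p = 0.364). DDIT3 read 9.29 and 9.92 and then 7.97 and 8.58, a response of 0.64 and 0.62 (limma adjusted p = 0.321). JUN, an AP-1 subunit, had a plate response of 1.26 log2 and a Transwell response of 0.34, and FOXO3, a factor that can induce BCL2L11 and BBC3, stood at -0.20 and 0.19. By the brightest probe set of each gene, the 9 were lower on Transwell than on plate in vehicle and in cholate, where 33.2% of genes above the floor were lower in both, except that TP73 turned in cholate under median centring and quantile normalization. The list was drawn up with earlier results for ATF3 and DDIT3 known, so no count from it, for cholate or for support, is independent support. At least 1.5-fold lower on Transwell were 3 of the 9 in vehicle (ATF3, DDIT3 and FOXO3) and 3 in cholate (ATF3, DDIT3 and JUN). Among genes above the floor 3.16% and 3.75% were. The list medians were -0.17 and -0.27. ATF4, named after its values were seen, had 2 probe sets that disagreed: the brighter one responded by 0.13 and -0.02 log2 and the dimmer one by 1.03 and 0.26. For Transwell minus plate the brighter one stood at -0.12 in vehicle and -0.27 in cholate, and the dimmer one at 0.30 and -0.47, so the direction in vehicle depends on the probe set.

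The other parts of the pathway showed few differences of this size. Among the other BCL2 family genes, 12 of 13 were measured and 10 lay above the floor, and 0 were 1.5-fold apart in any of the 4 comparisons. Their differences ran from -0.24 to 0.27 log2 for cholate and from -0.38 to 0.48 for support. Of the caspases, apoptosome components and their inhibitors, 10 of 13 were measured, all above the floor, and 0 were 1.5-fold apart. In that list the cholate medians were -0.02 log2 for the plate and 0.02 for Transwell, the second -0.02 under median centring. In the death receptor branch, 10 of 11 were measured and 9 lay above the floor. Of these, FADD, the adaptor that recruits caspase-8, and CASP8 itself were at least 1.5-fold higher on Transwell in cholate, by 0.70 and 0.68 log2, and stood at 0.56 and 0.48 in vehicle. FADD read 8.34, 8.14, 8.90 and 8.84 in plate vehicle, plate cholate, Transwell vehicle and Transwell cholate, and CASP8 7.64, 7.47, 8.12 and 8.16. Both genes, like BID, had their Transwell arrays above their plate arrays (limma adjusted p for support of 0.112 for FADD and 0.121 for CASP8). By any amount, 39.5% of genes above the floor were higher on Transwell in both treatments. The branch as a list did not share this direction: its median for Transwell minus plate was -0.06 log2 in vehicle and -0.11 in cholate. As deposited, 5 of its 9 genes were below 0 in vehicle and 6 in cholate. Of the 12900 genes above the floor, 6075 were below 0 in vehicle and 6006 in cholate. The 6 genes listed for ubiquitin ligases of MCL1 protein and its deubiquitinase USP9X were all measured, and 0 were 1.5-fold apart in any comparison. The counts of genes at 1.5-fold over all genes, given above for each comparison, are the background for these lists.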

How the data were processed

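Labelled cDNA from 4 RNA pools of Caco-2 cells was hybridised to 1 array per condition. The deposited values are log2 intensities, and the submitters' processing notes name RMA as the method; the sources used here do not state which software or probe set file was used. RMA equalises the arrays' distributions, so a change common to most transcripts would not be seen, and it compresses differences near background. Gene names came from the platform annotation. Members were the probe sets with 1 member symbol alone, the brightest standing for a gene. The background was 1 probe set per gene above the floor, the 40th percentile of mean intensity.

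Pairs of conditions were compared by subtracting log2 values, with no test, and 1.5-fold was the line for counts. limma 3.58.1 in R 4.3.3 fitted support and treatment additively (lmFit, eBayes, 2-sided, adjusted p under 0.05) over all 19978 probe sets above the floor. It was checked on simulated data that held additive effects and noise, with no other gap between the 2 cholate responses. That check does not show which changes the fit could find in the measured arrays. The residual of the fit is the gap between the 2 cholate responses, which eBayes combined with a prior drawn from all probe sets. The number of arrays limits the precision. The members, lists and motifs were chosen with earlier results of these data known, and the genes named from other lists are those at least 1.5-fold apart in a comparison, at most 4 per list, with the 5 genes closest to PMAIP1. Alternatives were median centring, quantile and cyclic loess normalization, all probe sets of a gene, a lower fold line (0.32 log2), no floor and an intensity-dependent prior. Listed genes with no probe set of their symbol alone were not analysed here. Gene positions are not given, since the build of the probe sets is not stated.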

Additional observations from a re-analysis of the deposited data

Results flagged for a closer look

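The cholate response had opposite signs on plate and Transwell in 5 members, and none of these differences was tested, since each uses all 4 arrays. The response on Transwell minus that on the plate was -0.459 log2 for BCL2L11, -0.142 for BAX, 0.123 for BCL2L1, 0.119 for BID and 0.074 for MCL1. BCL2L11 differed most, with a plate response of 0.34 log2 and a Transwell response of -0.12. The other 4 had responses within 0.121 log2 of 0 on both supports. For MCL1 and BCL2L1 the signs no longer differed under median centring. For BBC3, Transwell minus plate was 0.05 log2 in vehicle and -0.08 in cholate, a gap of -0.134 that was likewise not tested.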

How the results depend on the processing

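The 50 member differences were recomputed under 4 alternatives, and a value counted as moved when it shifted by 0.1 log2 or crossed 1.5-fold. All 50 held under cyclic loess normalization and with the mean of all probe sets of a gene, which is the same probe set here, and 49 held under median centring and under quantile normalization. The exception was PMAIP1 on Transwell, at 0.579 and 0.580 log2, which left 0 members at least 1.5-fold higher there. With a fold line of 0.32 log2, cholate on the plate had 3 members higher and 1 lower, Transwell against plate had 2 higher and 3 lower in vehicle, and in cholate 2 higher and 4 lower. At that line 5.74% of genes were higher and 10.3% lower in cholate on the plate, 9.64% were higher and 10.2% lower on Transwell in vehicle, and 15.4% higher and 11.7% lower on Transwell in cholate. The support fit gave 293 probe sets with the intensity-dependent prior and 0 under its other alternatives, and the cholate fit 0 under all of them. Signs turned, at values within 0.05 log2 of 0, for MCL1 and BCL2L1 on Transwell, BCL2 for support in cholate, and the gap between the BIK responses.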
